A study of Mus musculus with 27 samples.

Results

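De novo lipogenesis, the synthesis of fatty acids from carbohydrate or alcohol carbon, was followed through 10 genes in mouse liver. The 10 genes were taken by symbol: 7 enzymes (*Acly*, *Acaca*, *Acacb*, *Fasn*, *Elovl6*, *Scd1* and *Scd2*) and 3 regulators (*Srebf1*, *Mlxipl* and *Mid1ip1*). They are 10 of the 17655 genes listed in the deposited tables, and all 10 were listed in each of the 4 tables and passed the filter on low counts in every comparison.

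Whole liver RNA was sequenced from 27 mice, 3 in each of 9 groups. All mice were *Kdm5b* fl/fl, that is, they carried floxed alleles of *Kdm5b*, which encodes a demethylase of histone H3 lysine 4. WT mice received a control vector (AAV8-control on WDA, AAV-control in the resolution cohort). KO mice received AAV8-CMV-Cre or AAV-CMV-Cre, in which a broadly active promoter drives Cre, and HepKO mice received AAV8-TBG-Cre, in which a hepatocyte promoter drives it, so every group, WT included, carried the floxed alleles and a viral vector. WDA mice (WT and KO of both sexes, and HepKO females) were on a Western diet and drank water with alcohol, for 8 weeks by the labels, while the study's methods describe a longer feeding. Res mice (WT and KO of both sexes) had 16 weeks of this diet by the labels, then the vector, then 4 weeks of resolution, which the methods describe as alcohol cessation on chow, while WDA mice received the vector when feeding began. All 15 WDA libraries carry 11 and all 12 Res libraries carry 12 as the cohort number in their titles. Alcohol, diet, length of feeding, age, time since the vector and cohort therefore cannot be told apart in any comparison of the stages. The study also describes a surgical liver biopsy between feeding and resolution. The treatment labels do not mention it, and its part cannot be told apart either. The labels give no age.

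In this pathway ATP citrate lyase (*Acly*) makes cytosolic acetyl-CoA, acetyl-CoA carboxylases 1 and 2 (*Acaca*, *Acacb*) turn it into malonyl-CoA, and fatty acid synthase (*Fasn*) builds palmitate. ELOVL6 lengthens palmitate to stearate and stearoyl-CoA desaturases (*Scd1*, *Scd2*) place the first double bond, which readies the chain for storage as triglyceride. SREBP-1 (from *Srebf1*), induced by insulin and by the oxysterol receptor LXR, and ChREBP (from *Mlxipl*), which responds to sugars, drive these genes in liver, and MID1IP1 promotes the assembly of acetyl-CoA carboxylase into its active filament.

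Levels are given as CPM, read counts scaled to a common library total, after TMM scaling over all 27 libraries, and levels of different genes are compared only as FPKM, which also divides by transcript length. Differences are log2 fold changes with standard errors (SE) from edgeR's quasi-likelihood test on the counts, with Benjamini-Hochberg adjustment over all genes tested, and a gene is called at an adjusted p under 0.05. Library totals ranged from 14634602 to 19388251 counts. Albumin and the other hepatocyte markers were above 0 in every library, and 5 libraries had summed levels of 5 cholangiocyte markers (*Krt19*, *Krt7*, *Epcam*, *Sox9*, *Spp1*) over 150 CPM: WT WDA female 7 (464), KO WDA male 17 (527), WT Res female 13 (235), KO Res male 5 (197) and WT Res male 9 (154), against 16.3 to 105 in the other 22. Those 5 libraries were kept, and values without them are given where a call or a direction rests on them. The targeted gene *Kdm5b* was 26.0 ± 4.94 CPM (SD, n = 3) in WT and 18.1 ± 5.20 in KO WDA females, and 17.1 ± 0.442 in WT and 12.0 ± 1.26 in KO Res females. It was 24.3 ± 0.709 and 21.5 ± 0.789 in WT and KO WDA males, 19.2 ± 0.451 and 12.6 ± 4.62 in WT and KO Res males, and 13.3 ± 4.63 in HepKO females. Because the counts sum all exons, they cannot tell a transcript without the floxed exons from an intact one.

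The members lie apart in the genome except for *Scd1* (chromosome 19, 44394450 to 44407709, GRCm38.p6) and *Scd2* (chromosome 19, 44293676 to 44306864), which are neighbours and code for related enzymes. The ends of their coding sequences, read from the GENCODE vM21 transcripts, are shown because their counts could in principle be mixed. Capitals mark the 12 of 90 bases that differ between the aligned ends, which leaves 86.7% identity.

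Scd1, last 90 coding bases, chr19:44397919-44398008, minus strand, GRCm38: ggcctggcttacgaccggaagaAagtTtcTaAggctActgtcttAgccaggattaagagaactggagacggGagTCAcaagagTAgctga

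Scd2, last 90 coding bases, chr19:44303111-44303200, plus strand, GRCm38: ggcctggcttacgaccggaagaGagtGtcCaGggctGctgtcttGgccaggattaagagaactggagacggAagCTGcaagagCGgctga

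Over the whole *Scd2* transcript 2.68% of 50-base windows were also found in *Scd1*, and 3.49% of those of *Scd1* in *Scd3*. For the other 8 members no 50-base window was found in another member or in *Thrsp*, *Scd3* or *Scd4*. Annotated antisense transcripts cover 25.5% of the exonic bases of *Mid1ip1* (by *Gm14493*), 4.24% of *Mlxipl*, 1.93% of *Srebf1* and 0.529% of *Elovl6*. The sources used here do not say whether counting used the strand, so the low counts of *Mid1ip1* are the least certain.

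*Scd1* and *Elovl6*, the enzymes that finish the chain, fell together from the WDA to the Res livers, while *Acly* and *Fasn* did not. In WDA females *Scd1* stood at 23674, 19944.5 and 8741 CPM in WT, 16224, 12440.2 and 20426 in KO and 16506, 14230.1 and 12461 in HepKO mice. In WDA males it stood at 10358.5, 11341 and 13751 CPM in WT and 14008, 6880.0 and 13334 in KO mice. After resolution it was 1424, 741 and 1066 CPM in WT females, 1531, 1043 and 1335 in KO females, 1268, 1492 and 2452 in WT males and 1341, 1867 and 1091 in KO males. Every Res liver was below every WDA liver, and the lowest WDA value was 2.81 times the highest Res value. *Scd1* alone took 0.896% to 2.34% of all counts in a WDA library and 0.0809% to 0.266% in a Res library.

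*Elovl6* followed with smaller steps. Its levels were 154, 89.1 and 64.7 CPM in WT, 111, 79.5 and 128 in KO and 98.4, 74.3 and 69.2 in HepKO WDA females, and 86.0, 92.8 and 112 in WT and 119.7, 52.2 and 104 in KO WDA males. In Res mice they were 26.0, 49.6 and 28.5 CPM in WT females, 23.9, 24.6 and 21.4 in KO females, 48.7, 40.1 and 41.8 in WT males and 43.1, 36.1 and 37.7 in KO males. Again no Res liver reached the lowest WDA liver, although the margin was narrow, 49.6 against 52.2 CPM. In FPKM the margin was 9.48 against 11.9. Over all 27 libraries, 45 of 13534 genes (0.332%) were lower in every Res than in every WDA library, and *Scd1* and *Elovl6* were the 2 members among them, in WT, KO and HepKO mice pooled and with no test.

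**Figure D1:**
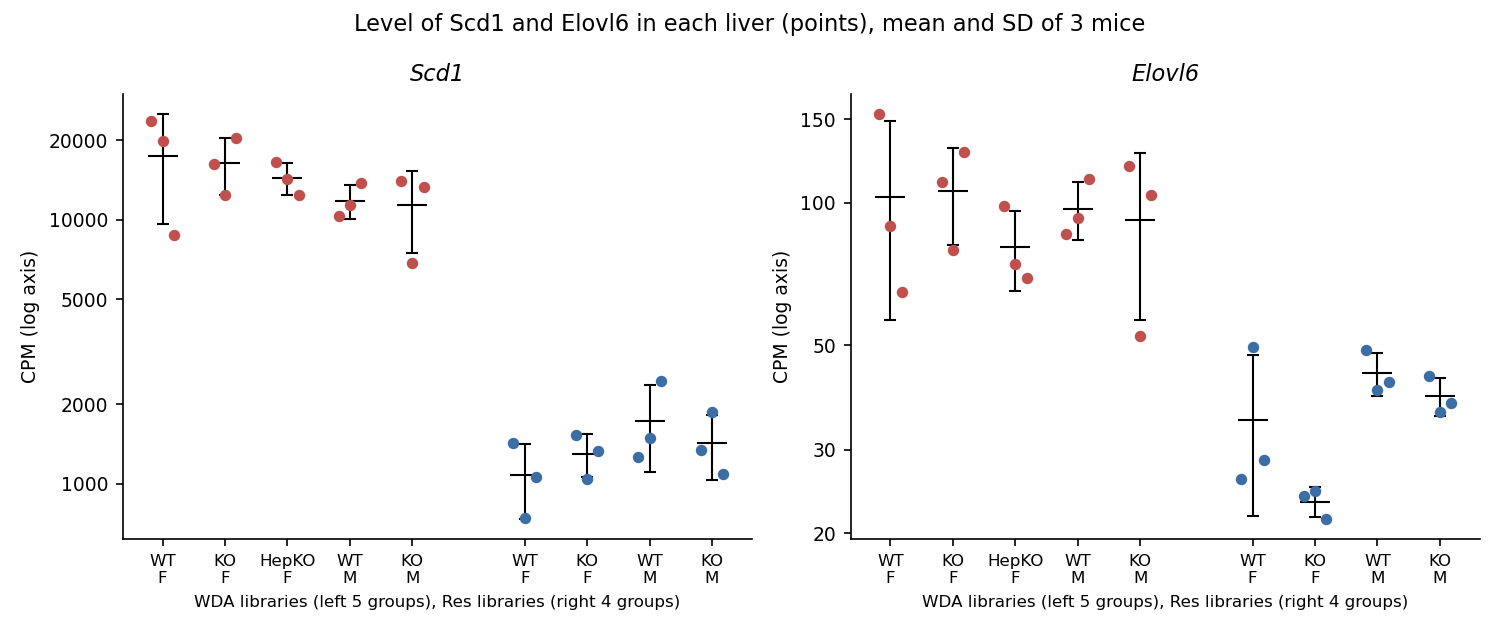
Level of *Scd1* and *Elovl6* in CPM (vertical log axis) in each liver (points, red WDA and blue Res) by group, with the mean and SD of 3 mice as black bars. For both genes all 12 Res livers lie below all 15 WDA livers, by a wide gap for *Scd1* (2452 against 6880.0 CPM at the edge) and a narrow gap for *Elovl6* (49.6 against 52.2 CPM).

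In WT mice of both sexes fitted together with sex as a covariate, 3 members were called and all 3 fell, in a comparison that called 10.3% of 13152 genes (617 higher, 732 lower). *Scd1* fell by 3.38 on the log2 scale (SE 0.35, adjusted p = 0.000842), a 10.4-fold drop and the lowest log2 fold change of all genes tested. *Elovl6* fell by 1.35 (SE 0.22, adjusted p = 0.00550) and *Srebf1* fell by 1.34 (SE 0.31, adjusted p = 0.0216). In KO mice 4 members were called and all 4 fell, where 9.14% of 13036 genes were called. There *Scd1* fell by 3.32 (SE 0.26, adjusted p = 4.06e-05), *Elovl6* by 1.70 (SE 0.23, adjusted p = 0.00260), *Acaca* by 0.43 (SE 0.11, adjusted p = 0.0352) and *Mid1ip1* by 0.73 (SE 0.20, adjusted p = 0.0420). In KO mice *Acaca* and *Mid1ip1* were called in 11 and 13 of 21 alternative analyses, while *Scd1* and *Elovl6* were called in 21 of 21 in WT and in KO mice. Only *Scd1* and *Elovl6* were left without KO WDA female 3, KO Res female 2, 3 or 4, or KO Res male 5 or 11. *Srebf1* was called in 21 of 21 alternatives in WT mice, at the weakest only just under the threshold. It was not called in KO mice (-0.77, SE 0.37, edgeR adjusted p = 0.203), nor in any of the 21 alternatives there.

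By sex, the WT males gave 5 calls among the members against 11% of 12408 genes. *Scd1* (-2.74, SE 0.27), *Elovl6* (-1.14, SE 0.12) and *Srebf1* (-0.87, SE 0.17) fell, whereas *Fasn* (0.62, SE 0.09) and *Acacb* (0.65, SE 0.14) rose, with adjusted p from 0.00329 to 0.0297 in edgeR's test. In this comparison 7 of 10 members had groups that did not overlap, beside 36% of genes. Without WT WDA male 20 or 21 only *Scd1* and *Elovl6* were called, and without WT WDA male 19 or WT Res male 8 there were 3 calls.

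The KO females gave 4 calls, against 20.4% of 12470 genes. *Scd1* (-3.65, SE 0.23), *Elovl6* (-2.18, SE 0.17) and *Acaca* (-0.66, SE 0.13) fell and *Scd2* (0.60, SE 0.14) rose, with edgeR adjusted p from 0.000105 to 0.0184. Here 5 members and 40.4% of genes had groups that did not overlap.

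No gene was called in WT females (0% of 12603 genes) or in KO males (0% of 12747 genes), so no member could be. In these comparisons *Scd1* still differed by -4.02 (SE 0.50) and -2.98 (SE 0.44). An unadjusted p under 0.05 was found for 4 and 5 members, beside 13.6% and 6.43% of all genes. DESeq2 called 4 (*Scd1*, *Elovl6*, *Srebf1* and *Mid1ip1*) and 2 (*Scd1* and *Elovl6*). Groups did not overlap for 4 members in WT females (20.4% of genes) and 5 in KO males (12.9% of genes). Without the libraries high in cholangiocyte markers *Scd1* was called in both, at -4.32 (adjusted p = 0.0257, edgeR) in WT females and -3.49 (adjusted p = 0.0134, edgeR) in KO males. That took a mouse from each group, WT females 7 and 13 and KO males 17 and 5. In each comparison *Scd1* was called in 4 of 15 alternative analyses. Leaving out WT WDA female 7 alone gave -4.34 (edgeR adjusted p = 0.0217), and leaving out KO WDA male 17 alone gave -3.24 (edgeR adjusted p = 0.0250) with *Elovl6* also called (-1.51).

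**Figure D2:**
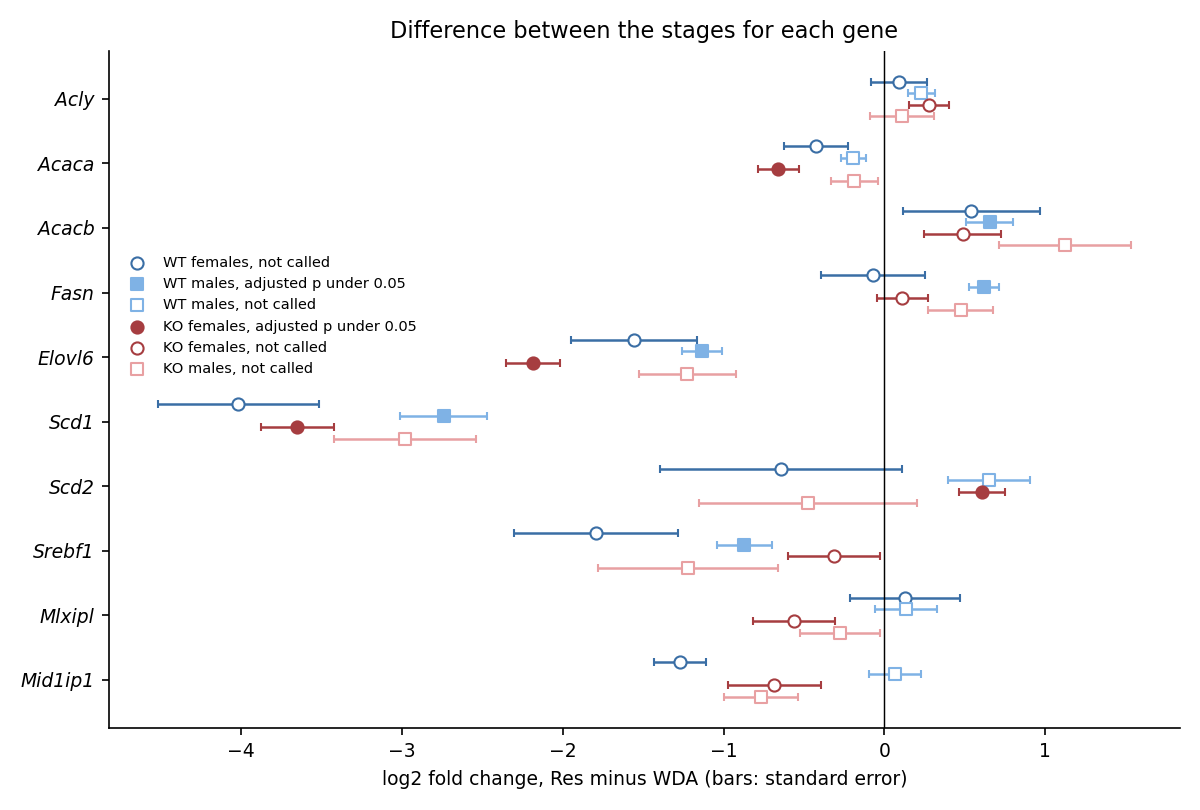
Log2 fold change of each of the 10 genes, Res minus WDA (horizontal axis, bars are the standard error), in WT females, WT males, KO females and KO males (3 against 3 mice each). Filled symbols are called at an adjusted p under 0.05 and open symbols are not. *Scd1* and *Elovl6* lie left of 0 in all 4, from -4.02 to -2.74 and from -2.18 to -1.14, while *Fasn* and *Acly* lie near or right of 0.

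The stage difference was tested for a dependence on the vector and on sex. The difference between KO and WT mice in the stage effect called no gene (0% of 13519), and no member had an unadjusted p under 0.05 (2.34% of genes) or was called by DESeq2. For *Scd1* that difference was 0.03 (SE 0.40), for *Elovl6* -0.33 (SE 0.32) and for *Srebf1* 0.57 (SE 0.51). The difference between WT males and females in the stage effect called 1 gene (0.0076% of 13152), which was no member. *Mid1ip1* came closest among the members, at 1.32 (SE 0.23, edgeR adjusted p = 0.120), and DESeq2 called it.

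*Acly* and *Fasn*, at the start and the centre of the pathway, showed no called fall. *Acly* ranged from 73.1 to 103 CPM over the WDA livers, the narrowest relative spread of the 10 there (coefficient of variation 9.21%), and from 62.3 to 109.8 CPM over the Res livers. Its stage difference was 0.16 (SE 0.09) in WT and 0.19 (SE 0.12) in KO mice, not called. *Fasn* ranged from 63.4 to 157 CPM in WDA and from 73.2 to 139 CPM in Res livers. In males its levels were 77.8, 70.5 and 75.1 CPM in WT WDA mice and 108, 126 and 106 in WT Res mice, which did not overlap, and 64.7, 63.4 and 78.5 in KO WDA and 73.2, 97.3 and 114 in KO Res mice, which overlapped. In WT females they were 153, 122 and 72.5 CPM in WDA and 139, 115 and 75.8 in Res mice. The WT fit over both sexes gave 0.27 (SE 0.20), not called.

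The carboxylases differed in direction. *Acaca*, which supplies cytosolic malonyl-CoA for synthesis, had a median of 88.5 CPM in WDA and 68.5 in Res livers, and all 4 stage differences were negative, from -0.66 to -0.19. *Acacb*, whose product at the mitochondrial surface restrains fatty acid oxidation, had a median of 42.5 CPM in WDA and 69.4 in Res livers, and all 4 differences were positive, from 0.49 to 1.12, of which the WT male value was called. Over both sexes *Acacb* differed by 0.60 (SE 0.24, edgeR adjusted p = 0.130) in WT and 0.80 (SE 0.27, edgeR adjusted p = 0.0779) in KO mice. Without the libraries high in cholangiocyte markers, an exclusion chosen after seeing the data, it was called in both, at 0.62 (edgeR adjusted p = 0.0103) and 0.71 (edgeR adjusted p = 0.0443). Of 21 alternative analyses, 1 called it in WT mice, which was that exclusion, and 3 called it in KO mice. The WT male call was kept in 9 of 15. The FPKM of *Acaca* was 1.35 to 5.12 times that of *Acacb* in WDA livers and 0.584 to 2.004 times in Res livers, which overlap. The highest WDA ratios were in WT WDA female 7 (5.12) and KO WDA male 17 (4.42), followed by WT WDA female 5 (2.64). The highest Res ratio was in WT Res female 13, followed by WT Res female 12 (1.36). Livers 7, 17 and 13 are among those high in cholangiocyte markers.

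**Figure D3:**
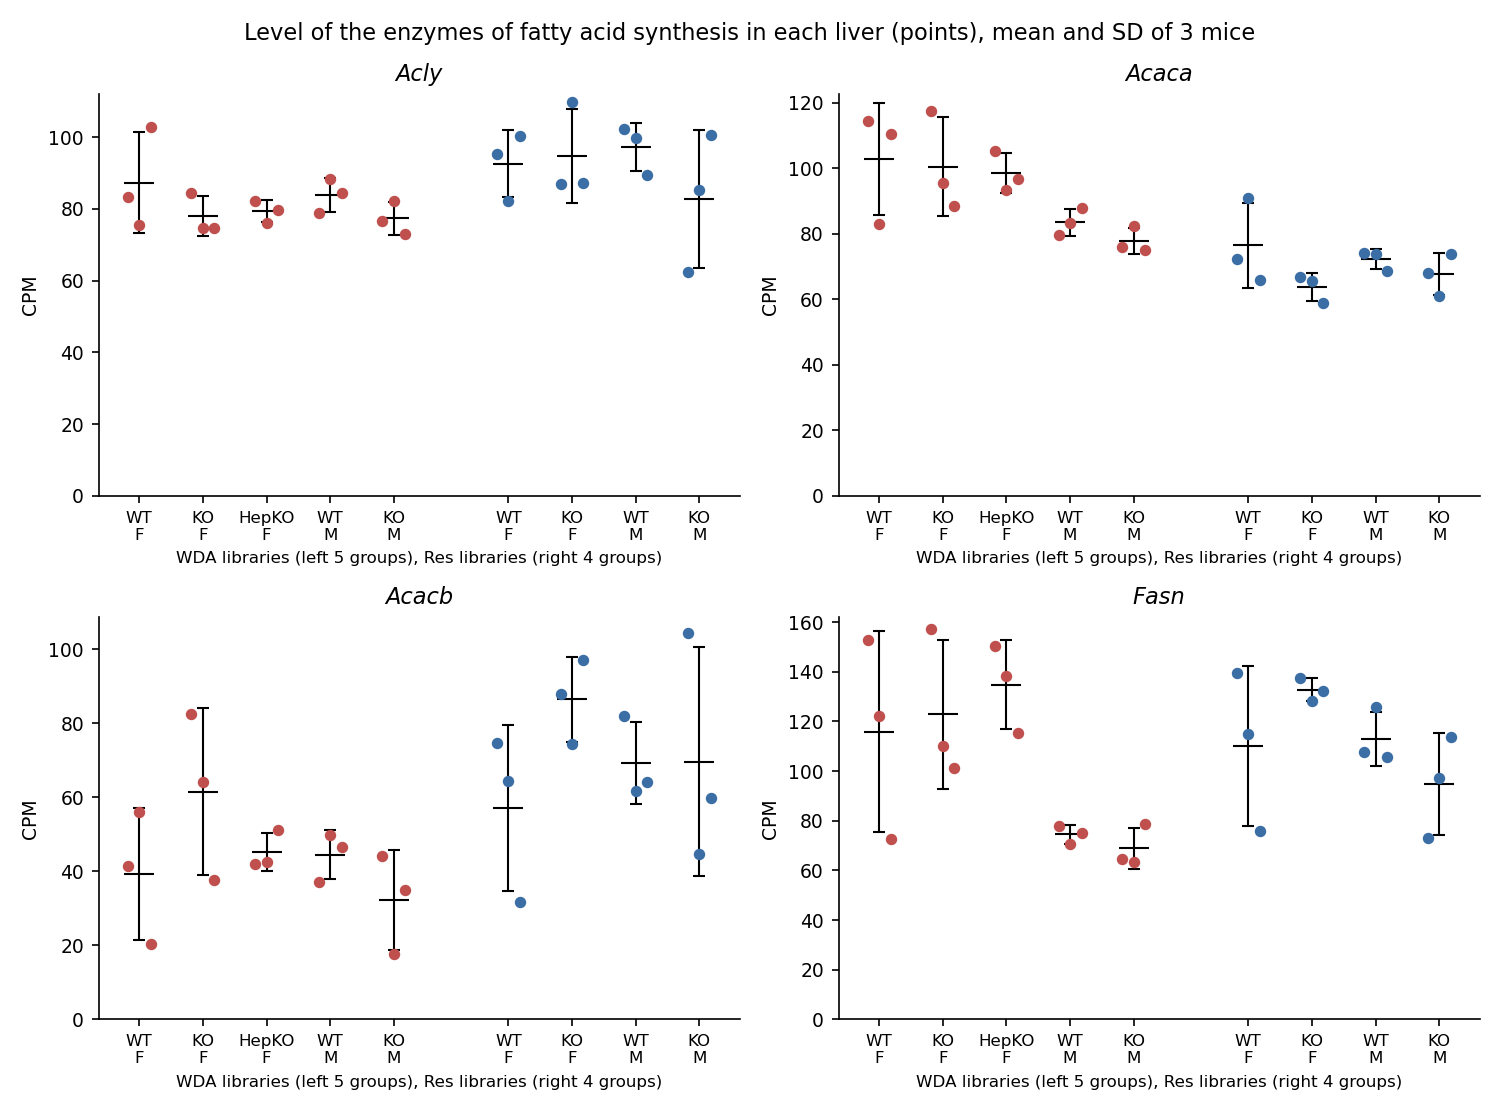
Level in CPM (linear axes from 0) of *Acly*, *Acaca*, *Acacb* and *Fasn* in each liver (points, red WDA and blue Res) by group, with the mean and SD of 3 mice as black bars. *Acly* stays between 62.3 and 109.8 CPM throughout, the median of *Acaca* is lower and that of *Acacb* higher in Res livers, and *Fasn* is lowest in WDA males, at 63.4 to 78.5 CPM.

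The make-up of the pathway's RNA differed between the stages. Per transcript length, *Scd1* had 205 to 428 times the level of *Fasn* in WDA livers and 12.8 to 46.2 times in Res livers, and it held 91.9% to 96.4% of the summed FPKM of the 10 genes in WDA and 58.3% to 81.7% in Res livers. *Elovl6* had 0.861 to 2.94 times the FPKM of *Fasn* in WDA and 0.260 to 0.944 times in Res livers. These ranges overlap for *Elovl6* and do not for *Scd1*. In bulk tissue, fewer cells of a type and less RNA per cell cannot be told apart.

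The promoters of *Fasn* and *Elovl6* are shown because both genes are known SREBP-1 targets and their levels tended to run in opposite directions among the Res livers. Spearman's rho between them was -0.57 over these 12 livers, which mix sexes and vectors. The bases are 250 to 51 before a RefSeq start (GRCm38.p6), the last 50 being left out because an annotated *Elovl6* exon begins there. The annotated *Fasn* gene, on the minus strand, reaches up to position 120825166. Its window therefore lies within the annotated gene and not before its outermost start. Capitals mark matches to the CCAAT box, the binding motif of NF-Y, on either strand.

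Fasn, chr11:120824598-120824797, minus strand: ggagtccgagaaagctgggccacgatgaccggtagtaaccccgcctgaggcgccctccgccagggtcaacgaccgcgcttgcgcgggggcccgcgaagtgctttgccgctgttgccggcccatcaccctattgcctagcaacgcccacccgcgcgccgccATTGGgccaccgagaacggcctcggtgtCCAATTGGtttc

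Elovl6, chr3:129532136-129532335, plus strand: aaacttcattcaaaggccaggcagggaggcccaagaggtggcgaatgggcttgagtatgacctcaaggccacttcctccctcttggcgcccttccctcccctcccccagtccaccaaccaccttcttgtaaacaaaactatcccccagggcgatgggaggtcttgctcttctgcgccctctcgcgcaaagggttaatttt

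The *Fasn* window holds 3 CCAAT matches, at 90, 62 and 59 bases before the start used, the last 2 of which overlap, and the *Elovl6* window holds none. RefSeq windows of 250 bases were at hand for 8 of the 10 members, 11 windows in all, and for neither *Scd1* nor *Scd2*. Counting both strands, CCAAT was in 5 of the 11 and in 33.8% of all 32851 windows, the GC box GGGCGG in 5 and 32.7%, the E-box CACGTG in 1 (*Mlxipl*) and 6.02%, and the sterol regulatory element TCACNCCAC in 1 (another *Mlxipl* window) and 1.05%. A match is a run of letters only, and a window without one says nothing about the factor.

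*Srebf1* varied widely, with a coefficient of variation of 53.1% over the WDA livers, where only *Scd2* varied more (78.7%), and 91.0% over the Res livers, the highest of the 10. In WDA mice it was 181, 203 and 182 CPM in WT females, 311, 149 and 225 in KO females, 373, 277 and 257 in HepKO females, 66.5, 63.5 and 63.7 in WT males and 90.4, 139 and 114 in KO males. In Res mice it was 102, 22.6 and 39.2 CPM in WT females, 127, 253 and 171 in KO females, 26.1, 34.7 and 43.2 in WT males and 18.3, 97.1 and 29.97 in KO males. WT males were tight and low on WDA, and the Res livers spanned a 13.8-fold range. The counts sum over the gene, so the transcripts for SREBP-1a and SREBP-1c are not separated, and the same holds for the isoforms of ChREBP.

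WT males on WDA had less *Srebf1* RNA than WT females, with a difference of -1.55 (SE 0.11, edgeR adjusted p = 0.00270), the only member called where 0.851% of 12333 genes were. With all 27 libraries in 1 fit *Srebf1* was not called (edgeR adjusted p = 0.0979) and *Mid1ip1* was (edgeR adjusted p = 0.0145). The groups of *Srebf1* and those of *Mid1ip1* (13.99, 10.95 and 9.34 CPM in males, 30.5, 23.0 and 24.4 in females) did not overlap, beside 24.4% of genes, and *Mid1ip1* differed by -1.19 (SE 0.19, edgeR adjusted p = 0.0511). Without WT WDA female 7, *Scd1* (-0.88) and *Fasn* (-0.88) were also called lower in males, as was *Mid1ip1* (-1.22), with edgeR adjusted p of 0.00647, 0.00203 and 0.00476. Without WT WDA male 20 or 21 no member was called, and *Srebf1* then stood at -1.54 with edgeR adjusted p of 0.0549 and 0.0708. Clock genes also differed between these 2 groups, though 0 of 11 were called. For 7 of the 11 the groups did not overlap (24.4% of genes). An unadjusted p under 0.05 in edgeR's test was found for 6 (14.2% of genes). The labels give no hour of collection, and its part in the sex difference was not tested. After resolution no member was called between the sexes (0.545% of 12661 genes), none had an unadjusted p under 0.05 (9.03% of genes), DESeq2 called none, and none had groups that did not overlap (15.4% of genes).

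Between KO and WT mice edgeR called no gene, hence no member, in WDA females (0% of 12397), WDA males (0% of 12419), Res females (0% of 12577), Res males (0% of 12620) or in the sexes combined on WDA (0% of 12895) and after resolution (0% of 13178). An unadjusted p under 0.05 was found for 0, 3, 3, 0, 1 and 2 members in that order. Over all genes tested the shares were 3.11%, 7.71%, 19.2%, 1.45%, 2.92% and 7.85%. DESeq2 called 1 member, *Srebf1* in WDA males. The difference in *Srebf1* was 1.72 (SE 0.51, edgeR adjusted p = 0.148) in Res females, 0.84 (SE 0.17, edgeR adjusted p = 0.588) in WDA males, 0.50 (SE 0.53) in Res males and 0.25 (SE 0.26) in WDA females. In the first and second of these KO and WT livers did not overlap. The other 2 differences changed sign with 1 mouse left out. The Res male value was -0.54 without KO male 5 (97.1 CPM) and -0.33 without the libraries high in cholangiocyte markers, and the WDA female value was -0.03 without KO female 1. Without WT Res female 1, the WT mouse with the highest *Srebf1* of its group, the Res female difference was 2.52 (edgeR adjusted p = 0.0202).

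The groups did not overlap for 2 members in Res females (*Srebf1* higher and *Elovl6* lower in KO, 26.2% of genes), 2 in WDA males (*Srebf1* and *Mid1ip1* higher in KO, 16.3% of genes), 0 in WDA females (8.81% of genes) and 0 in Res males (4.64% of genes). The difference between the sexes in the KO effect after resolution called no gene (0% of 13178), with no member at an unadjusted p under 0.05 (11.5% of genes) and none called by DESeq2. For *Srebf1* it was -1.23 (SE 0.85). *Scd1* differed by -0.07 (SE 0.26) between KO and WT mice on WDA and by -0.01 (SE 0.22) after resolution, against a stage difference above 3 in size. The KO and stage comparisons share groups, so their values are not independent.

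The hepatocyte vector gave no call among the members either. Against WT females on WDA no gene was called (0% of 12413). *Srebf1* at 257 to 373 CPM in HepKO lay above 181 to 203 in WT, a difference of 0.67 (SE 0.18, edgeR adjusted p = 0.311). It was the only member whose groups did not overlap (18.6% of genes), the only one with an unadjusted p under 0.05 (10.1% of genes) and the only one called by DESeq2. Against KO females 2 genes were called (0.0162% of 12351), none a member. Both were clock genes, higher in HepKO livers. For 6 of 11 clock genes these groups did not overlap, beside 10.9% of genes, and the part of collection hour was not tested. *Scd2* was 20.2, 14.4 and 10.9 CPM in HepKO and 7.70, 9.44 and 8.46 in KO females, the only member without overlap (10.9% of genes), with a difference of 0.82 (SE 0.22, edgeR adjusted p = 0.611), and DESeq2 called no member. *Scd1* in HepKO livers differed by -0.28 (SE 0.39) from WT and by -0.19 (SE 0.19) from KO livers. Without WT female 7 the first was -0.60 (SE 0.13, edgeR adjusted p = 0.0502).

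Among the 12 Res livers *Elovl6* ran nearly in reverse order to *Srebf1*, and *Fasn* followed *Srebf1* loosely. KO Res male 5, for example, had 97.1 CPM of *Srebf1* and 97.3 CPM of *Fasn*, below most Res livers in *Fasn*. The 3 KO females and WT female 1 had the highest *Srebf1* (102 to 253 CPM), *Fasn* (128 to 139) and *Insig1* (99.0 to 153), and the lowest *Elovl6* (21.4 to 26.0). *Insig1* encodes a protein that holds SREBPs in the endoplasmic reticulum and is itself an SREBP target. Within the Res livers Spearman's rho with *Srebf1* was -0.90 for *Elovl6*, -0.70 for *Acaca* and 0.61 for *Fasn*, and within the 15 WDA livers it was -0.10, 0.65 and 0.75. These are descriptions over 12 and 15 livers that mix sexes and vectors. *Scd1* followed *Fasn* (0.70) and *Elovl6* (0.72) within the WDA livers and neither within the Res livers (-0.01 and -0.12).

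**Figure D4:**
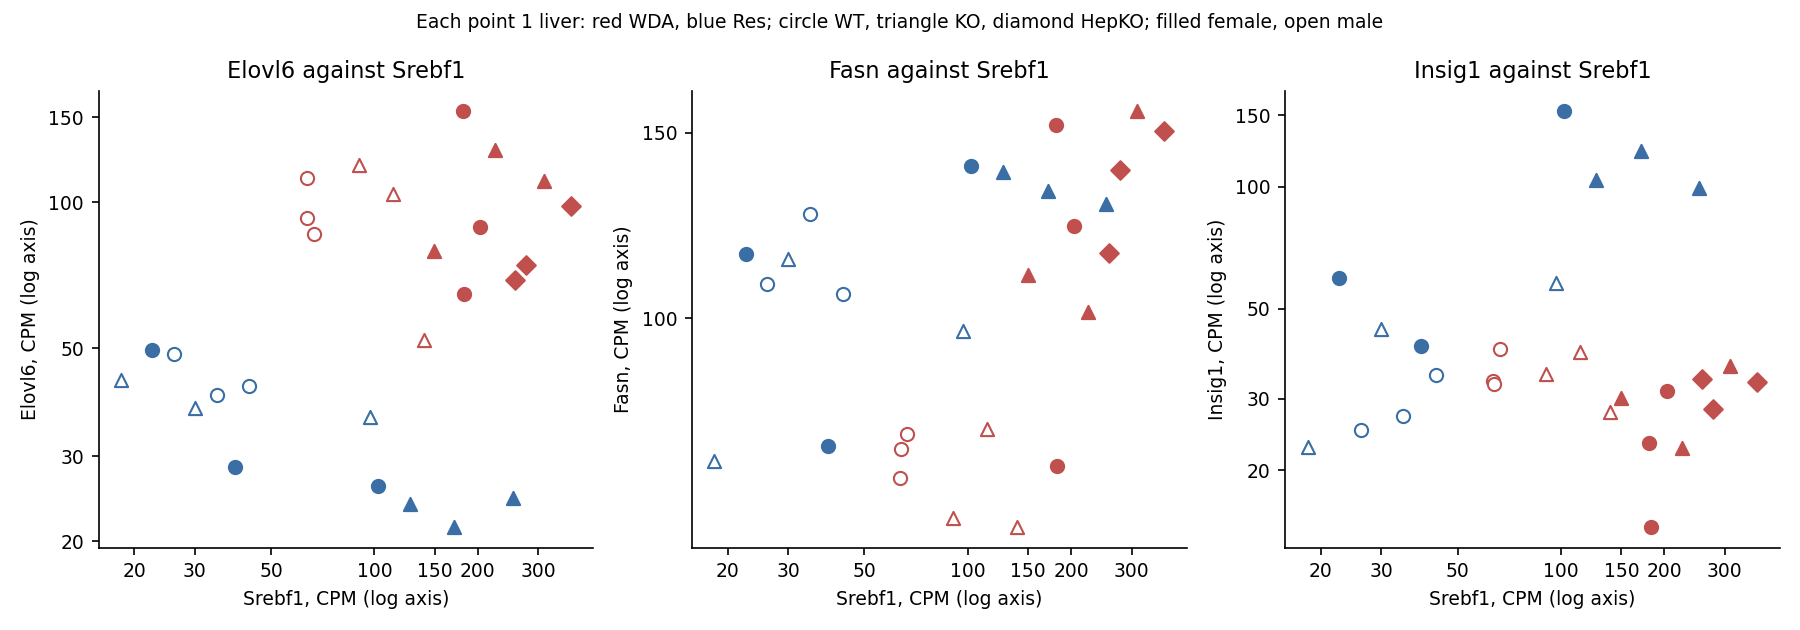
*Elovl6*, *Fasn* and *Insig1* (vertical log axes, CPM) against *Srebf1* (horizontal log axes, CPM), each point 1 liver (red WDA, blue Res, circle WT, triangle KO, diamond HepKO, filled female, open male). Among Res livers, the 4 females with *Srebf1* above 100 CPM have *Elovl6* of 21.4 to 26.0, *Fasn* of 128 to 139 and *Insig1* of 99.0 to 153 CPM.

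The genes whose levels followed a member most closely within both stages were sought among 9754 genes with a mean log2 CPM of at least 2, by the smaller of the Spearman correlations within the 15 WDA and the 12 Res livers. For *Srebf1* they were *Zfp703*, *Klhl25*, *Cirbp*, *2410002F23Rik* and *Inafm2* (smaller rho 0.88 to 0.91). For *Fasn* they were *Plg*, *Atpaf2*, *Ceacam1*, *Ces1c* and *Notum* (0.85 to 0.89). For *Scd1* they were *Dennd2d*, *Aspg*, *Thpo*, *Cnppd1* and *Fastkd1*, with weaker likeness (0.53 to 0.73). These genes were picked as the highest of many correlations and share library and depth.

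The other regulators were *Mlxipl* and *Mid1ip1*. *Mlxipl* ranged from 77.3 to 278 CPM in WDA and from 78.6 to 172 in Res livers and was called in no comparison. *Mid1ip1* was 9.34 to 30.5 CPM in WDA and 8.10 to 12.9 in Res livers, so the high values were found on WDA, in WT females (23.0 to 30.5), HepKO females (14.8 to 24.1), KO female 3 (28.7) and KO males (14.1 to 22.2). Its paralog *Thrsp*, another lipogenic cofactor, ranged from 4.70 to 118 CPM on WDA and from 10.9 to 95.4 CPM in Res livers, and differed by -0.36 (SE 0.48) in WT and 0.04 (SE 0.46) in KO mice, not called.

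*Scd2*, the desaturase of brain and developing tissues, was at 5.58 to 37.3 CPM in WDA and 5.75 to 22.9 CPM in Res livers. The FPKM of *Scd1* was 209 to 4481 times that of *Scd2* in WDA and 66.3 to 215 times in Res livers. The highest *Scd2* was in WT WDA female 7 (37.0 CPM) and KO WDA male 17 (37.3 CPM), and among Res livers in KO male 5 (22.9 CPM) and WT female 13 (18.2 CPM). These are 4 of the 5 livers over 150 CPM of cholangiocyte marker RNA, and its part in the *Scd2* level was not tested. HepKO female 13 had 20.2 CPM of *Scd2* with a marker sum of 19.8 CPM. Livers 7 and 17 also had the highest summed levels of the stellate cell markers *Col1a1*, *Col3a1*, *Acta2*, *Lrat* and *Des* (264 and 303 CPM against 25.9 to 88.7 in all others). In CPM they had the lowest *Scd1* (8741 and 6880.0), *Elovl6* (64.7 and 52.2) and *Thrsp* (9.55 and 4.70) of the WDA livers. Their TMM factors were high, 1.36 and 1.30. In FPKM *Thrsp* was still lowest in both (15.1 and 7.05), and *Scd1* (1946) and *Elovl6* (11.9) were lowest in liver 17. Liver 7 then had *Elovl6* at 15.4 and *Scd1* at 2584, above the WT WDA males (2023 to 2551). Between the stages *Scd2* differed by -0.02 (SE 0.46) in WT and 0.04 (SE 0.41) in KO mice, not called. These values rest on livers 7 and 17: *Scd2* differed by 0.63 without WT WDA female 7 and by 0.57 without KO WDA male 17, and by 0.23 (SE 0.18) in WT and 0.32 (SE 0.20) in KO mice without all 5 livers high in cholangiocyte markers, none of them called.

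**Figure D5:**
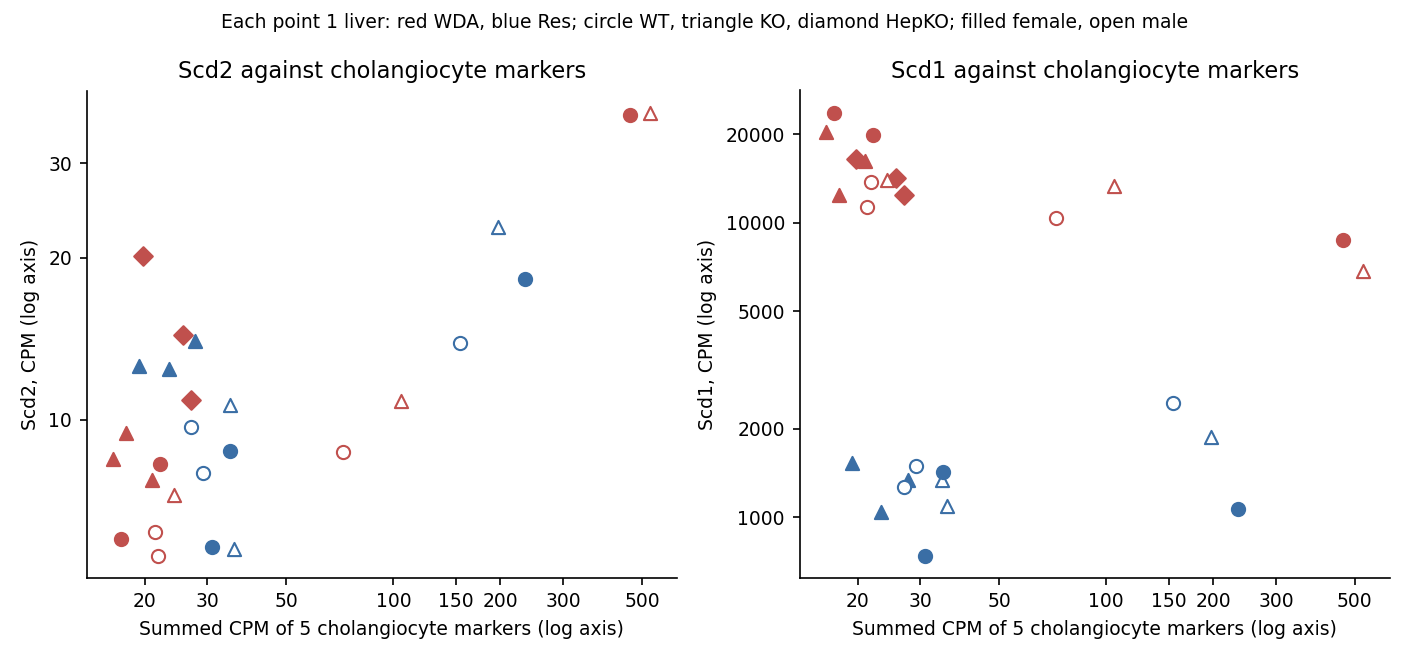
*Scd2* (left) and *Scd1* (right), CPM on vertical log axes, against the summed CPM of 5 cholangiocyte markers on a horizontal log axis, each point 1 liver (red WDA, blue Res, circle WT, triangle KO, diamond HepKO, filled female, open male). The livers with marker sums of 464 and 527 CPM have the highest *Scd2* (37.0 and 37.3 CPM) and the lowest *Scd1* of the WDA livers (8741 and 6880.0 CPM), which are still above every Res liver. In FPKM the *Scd1* of the first of these (2584) is above that of the WT WDA males (2023 to 2551).

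The surrounding pathways were read from gene lists in the WT and KO comparisons of the stages, beside a median log2 fold change over all genes of 0.02 in WT and -0.01 in KO mice and calls for 10.3% and 9.14% of all genes. An unadjusted p under 0.05 was found for 27.4% of all genes in WT and 26.4% in KO mice. Of 9 tested genes of elongation and desaturation outside the members, 2 fell and none rose in WT mice (median -0.51), and 4 fell and none rose in KO mice (median -0.30). *Fads2*, the delta-6 desaturase (-0.83 in WT, -0.68 in KO), and *Elovl5*, an elongase of polyunsaturated chains (-0.83 and -0.80), were called in both. *Elovl2* (-0.82) and *Hsd17b12* (-0.61), of the elongation cycle, were called in KO mice. Of 8 genes that supply NADPH and acetyl-CoA, 1 fell in WT mice (*Taldo1*, -0.42, list median -0.12) and 1 in KO mice (*Tkt*, -0.45, list median -0.05), both of the pentose phosphate pathway. Of 6 genes of glycerolipid assembly, 1 rose in WT mice, the phosphatidate phosphatase *Lpin1* (1.83, list median -0.13), and none was called in KO mice (median -0.03), where 1 had an unadjusted p under 0.05 in edgeR's test. Of 6 genes of glucose and fructose entry, none was called by edgeR in WT mice (median -0.37, with 4 at an unadjusted p under 0.05), and 1 fell in KO mice, the glucose transporter *Slc2a2* (-0.78, list median -0.33). Genes named for KO mice alone were picked after their values were seen.

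Genes of sterol synthesis and uptake, the targets of SREBP-2, went the other way from *Scd1*. Of 10 tested, 4 rose and none fell in WT mice (median 0.54), and 7 rose and none fell in KO mice (median 0.62). By sex, 4 rose and 1 fell in WT males (median 0.39), and 8 rose and 0 fell in KO females (median 0.94). In WT females all 10 differences were positive (median 0.86) but 0 were called. The stage effect was lower in WT males than in WT females for all 10 (median -0.57), with 0 called. Of these, 4 had an unadjusted p under 0.05 in edgeR's test (7.71% of genes). *Sqle*, squalene epoxidase, rose by 2.67 (SE 0.66) and 2.75 (SE 0.64) in WT and KO mice. *Idi1* rose by 1.86 (SE 0.30) and 1.90 (SE 0.16), and *Cyp51* by 1.56 (SE 0.32) and 1.80 (SE 0.20). Of 11 genes that control SREBP-1 and ChREBP, none was called in WT mice (median -0.07, with 1 at an unadjusted p under 0.05) and 1 rose in KO mice (median 0.04), *Insig1*, by 1.09 (SE 0.29). *Insig2* (-0.10 and -0.04) and *Nr1h3*, which encodes LXR alpha (-0.19 and 0.05), were not called in WT or KO mice.

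Some fasting and clock genes were called between the stages. Of 10 genes raised by fasting, 2 rose and none fell in WT mice (median 0.17) and in KO mice (median 0.18), *Pdk4* (1.30 and 1.31) and *Cyp4a14* (0.90 and 1.01). Of 11 clock genes, 2 rose and 3 fell in WT mice (median -0.39), and 1 rose and 1 fell in KO mice (median -0.05). By sex, 2 rose and 4 fell in WT males (median -0.70, beside calls for 11% of genes). In KO females 5 rose and 2 fell (median 0.43, beside calls for 20.4% of genes). The medians were -0.07 in WT females and -0.72 in KO males, where no gene was called. In WT mice *Dbp* (-3.33) and *Nr1d1* (-2.11) fell and *Per1* (1.31) rose. *Dbp*, a clock output gene, was 1.67 to 5.17 CPM in the Res livers, 12.0 to 68.3 in the WDA males and 3.15 to 32.5 in the WDA females. Among the WDA females it was 4.52 to 5.07 CPM in KO mice and 13.6 to 22.6 CPM in HepKO mice. The labels give no hour of collection or feeding state, and the part of either in the differences between stages, sexes or vectors was not tested.

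Few markers of other cell types were called between the stages. No marker of macrophages (6), stellate cells (5), cholangiocytes (5) or endothelial cells (4) was called by edgeR in WT or KO mice with the sexes combined. By sex, the cholangiocyte marker *Sox9* rose in WT males (1.95), and the macrophage marker *Trem2* (1.85) and the hepatocyte markers *Alb* (0.74) and *Serpina1a* (0.65) rose in KO females, all picked after their values were seen. In KO mice all 5 stellate markers had negative differences (median -0.40), with 1 at an unadjusted p under 0.05, and 2 of the 4 endothelial markers had one, beside 26.4% of all genes. Of 6 hepatocyte markers none was called in WT mice, and *Alb* rose by 0.59 in KO mice. Of 5 adipocyte markers only *Cfd* passed the count filter, at -2.79 in WT mice, not called, and -3.36 (edgeR adjusted p = 0.0312) in KO mice, and by sex it fell in WT males (-4.70) and KO females (-2.35). The summed adipocyte markers reached 127 CPM in WDA and 10.8 CPM in Res livers, and they were 0.0444 to 0.475 CPM in WT WDA females, with 4 of 5 markers at 0. The part of adipocyte RNA in the stage differences was not tested.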

How the data were processed

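Whole liver RNA from 27 mice was sequenced on a BGI platform. Per the labels and the study's methods the authors aligned reads with HISAT to GRCm38.p6 and with Bowtie2 to reference genes, and deposited 4 tables, by cohort and sex, that hold estimated counts (7.342% to 8.094% not whole) and FPKM per gene and mouse; the quantifier and strand setting are not given in the sources used here. The estimated counts were rounded. Groups came from the labels' treatment and sex. The main test was edgeR 4.0.16 in R 4.3.3 (filterByExpr with a minimum count of 10, TMM scaling, glmQLFit and glmQLFTest, Benjamini-Hochberg over all genes tested), with sex as a covariate where sexes were combined, on the mice compared. The SE is the log2 fold change over the root of F. DESeq2 1.42.0 and limma 3.58.1 on log2(FPKM + 1) were alternatives, beside other scalings, filters, a fit of all 27 libraries, a replicate block and leaving out each mouse. The test was checked on counts simulated for the stage comparisons of WT females, WT males and WT mice of both sexes. In that order it called 17, 72 and 65 of 100 genes changed by 1 on the log2 scale. Of 100 genes changed by 2 it called 77, 91 and 97. Unchanged genes called numbered 5, 13 and 6. The simulated counts were drawn separately for each gene from its fitted spread, and no other genes were changed. No simulated library differed from its group across many genes at once, as WT WDA female 7 did in cholangiocyte and stellate markers. These counts therefore do not give the power in the real mice, where edgeR called 0 of 12603 genes in WT females. Named genes were the 10 members, up to 3 called genes per list by size in WT mice, *Thrsp*, *Insig1*, *Insig2* and *Nr1h3*. Members and lists were chosen with earlier results of these data known. Mice within a group are separate animals, and 3 per group limit the precision. Library totals of 14634602 to 19388251 counts set the counting error.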

Additional observations from a re-analysis of the deposited data

How the results depend on the processing

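*Scd1* and *Elovl6* were called lower in Res livers in 21 of 21 alternatives in WT mice (-3.63 to -3.20 and -1.48 to -1.14) and in 21 of 21 in KO mice (-3.59 to -3.18 and -1.90 to -1.54). *Srebf1* was called lower in 21 of 21 in WT mice (-1.62 to -1.12) and in 0 of 21 in KO mice (-1.12 to -0.54). Of 3380 recomputed values of the members, 244 changed sign, 0 of them called. Of 297 recomputed values of called members, 42 lost the call, and of 3083 uncalled, 43 gained one. The cause was not tested. Members called in the stage comparison of WT females numbered 0 by edgeR, 4 by DESeq2, 4 with all 27 libraries in 1 fit and 1 without the libraries high in cholangiocyte markers, an alternative chosen after seeing the data. For KO males the same counts were 0, 2, 1 and 1. All 27 libraries in 1 fit gave 2 of the 5 calls in WT males, 3 of the 4 in KO females (*Scd2* lost), 5 against 3 in WT mice, 5 against 4 in KO mice (*Acacb* gained) and 1 against 0 (*Srebf1*, KO against WT) in Res females. DESeq2 gave 5 against 3 in WT mice, 5 against 4 in KO mice, 1 against 0 for KO against WT in WDA males, for HepKO against WT and for the stage difference between the sexes, and 2 against 1 between the sexes on WDA. That sex comparison gave 1 in the fit of all 27 libraries, *Mid1ip1* in place of *Srebf1*, and 2 with upper quartile scaling, library totals or FPKM with limma, and 4 without the libraries high in cholangiocyte markers. FPKM with limma gave 2 of 4 in KO mice. Leaving out 1 mouse in turn gave 3 to 3 calls in WT mice, 2 to 4 in KO mice, 2 to 5 in WT males, 3 to 5 in KO females, 0 to 1 in WT females, 0 to 2 in KO males, 0 to 4 between the sexes on WDA, 0 to 1 for KO against WT in Res females, and 0 to 0 in the others. Mouse numbers do not pair mice across groups, and with the replicate number as a block, KO females, which share numbers 2 and 3 between stages, had 3 calls against 4: *Scd2* and *Acaca* lost and *Acacb* (0.71) gained the call. DESeq2 called 404 genes in WT females, 79 in KO males and 636 for KO against WT in Res females, where edgeR called 0.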
